A study of Homo sapiens with 11 samples.

Results

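The genes described here code for the machinery of RNA interference, the cell's route from a small double-stranded RNA to the silencing of a matching messenger RNA, in PC3 cells, a line grown from a bone metastasis of human prostate cancer. The 10 genes were chosen by name: DROSHA, DGCR8, XPO5, DICER1, TARBP2, AGO1, AGO2, AGO3, AGO4 and TNRC6A. All 10 were found among the 33616 genes named by a probe set with exactly 1 gene symbol, and each was read from its probe set with the highest mean over the arrays. Of these, 9 were among the 16808 genes with the higher mean levels that entered the tests. TARBP2, with a mean log2 intensity of 4.52 against a lowest mean kept of 4.90, did not.

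RNA was hybridized to 11 Clariom D arrays for human transcripts, with a single array for each condition. At both 48 h and 24 h, cells had been transfected with siHOXA11-AS, siHOXA11, siHOXB13 or the control siRNA siNC. These siRNAs target the long noncoding RNA HOXA11-AS, the homeobox gene HOXA11 on its opposite strand, and the homeobox transcription factor gene HOXB13. At 48 h, 3 further arrays carried the titles shIBSP(1), shIBSP(2) and shNC, where IBSP codes for the bone matrix protein integrin-binding sialoprotein. Other fields of their labels speak of siRNA, and the study's own siRNA list holds 2 siRNAs against IBSP, so whether these cells received shRNA or siRNA is not settled; they are called sh arrays after their titles. All arrays are of PC3 cells, to which siRNAs were delivered with a lipid reagent, and siRNAs against different sequences of a target were combined.

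Differences taken at only 1 time therefore rest on 1 array against 1, with no replicate. Nothing in the sources says that the 48 h and 24 h arrays came from separate experiments. The p-values therefore measure only the spread between these arrays. In the siRNA comparisons this is the disagreement between 48 h and 24 h that is left after siRNA and time are fitted. It may hold technical spread, responses that differ between the times, and the arrays described next whose labels or levels stand apart. HOXB13, the target of siHOXB13, had a log2 intensity of 8.09 on the siHOXB13 array and 10.10 on the siNC array at 24 h, but at 48 h the array labelled siHOXB13 had 10.36 and the one labelled siNC 8.52. At 48 h the target thus contradicts both labels, and siHOXB13 and siNC at 48 h stand for the arrays so labelled. At 48 h, HOXA11-AS was at 6.40 on the siHOXA11-AS array, against 6.68 on the siNC array, and at 24 h these were 6.01 and 6.30. These gaps were small, and at 48 h the siHOXA11 array was lower still, at 6.25. Each of these HOXA11-AS levels lay below the 90th percentile of the background probe sets on its own array (6.49 to 7.43 per array). HOXA11 itself was not analysed. IBSP was at 3.84 and 3.17 on the shIBSP arrays and 3.50 on the shNC array, so 1 of the 2 was not below shNC. These values lie near the medians of the background probe sets on these arrays, 3.30 to 3.32. At that level a fall of IBSP could not be seen, so they cannot decide whether it was silenced. A lower target level is therefore not established on these arrays for siHOXA11-AS, siHOXA11 or shIBSP, which are named by their labels. The paper assessed silencing of HOXA11-AS in PC3 cells by qPCR and describes those cells as repressed for it. The siHOXA11 array at 48 h stood apart: 13.2% of all genes tested were at least 2-fold lower on it than on the siNC array of that time, against 0.976% for the same siRNAs at 24 h. The epithelial markers KRT8, KRT18, KRT19 and EPCAM lay between 12.91 and 17.03 on all arrays, and KLK3, the prostate-specific antigen gene, between 5.57 and 6.57.

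In the nucleus, the RNase DROSHA and its partner DGCR8 cut hairpins out of long microRNA precursors, and XPO5 (exportin 5) carries the hairpins to the cytoplasm. There the RNase DICER1, with its partner TARBP2, trims them to short duplexes, and 1 strand of a duplex is loaded into an Argonaute protein, AGO1 to AGO4. TNRC6A (GW182) binds Argonaute and recruits the enzymes that shorten and decay the bound mRNA. A synthetic siRNA does not need the nuclear steps and uses the Argonaute proteins directly, of which only AGO2 is known to cut a fully matched target efficiently; an shRNA is made as a hairpin and passes through XPO5 and DICER1.

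Sequences that the study lists for its siRNAs are shown first, because siRNAs are substrates of the machinery described. Whether the cells of the sh arrays received those against IBSP is not settled. Each line gives the targeted RNA sequence as the study lists it, written as DNA. Capitals mark positions 14 to 20 of the 23 bases, which pair with the guide's seed (its bases 2 to 8) if the guide pairs with positions 1 to 21, the layout of the siDirect design tool named in the study's methods. The study lists 3 sequences for HOXA11-AS, and the sources used here do not say which of them these arrays had; the sequence of siNC was not used here.
siHOXA11-AS (1), guide seed CGAUAAA: gagtgtatttcctTTTATCGtca
siHOXA11-AS (2), guide seed CCAAAUC: cggctaacaaggaGATTTGGtca
siHOXA11-AS (3), guide seed GAAGUUU: ttcttgtttttccAAACTTCaag
siHOXA11 (2), guide seed UUAUUUA: ttcaaaaaacttgTAAATAAagg
siHOXB13 (1), guide seed UAAUUAG: ttcatgaattgagCTAATTAtga
siHOXB13 (2), guide seed AAUUUAU: gagctaattatgaATAAATTtgg
siIBSP (1), guide seed UUAAUGU: aagaatttcattgACATTAAtga
siIBSP (2), guide seed UUAUUUG: acgagttttatcaCAAATAAaaa

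The 9 guides listed for the 4 targets had 9 different seeds, with 4 to 7 of the 7 seed bases being A or U.

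By the median of their ranges, though not gene by gene, the members tested varied more over the 11 arrays than all genes tested. The 9 tested members had a median range (highest minus lowest array) of 1.98 on the log2 scale, against 1.23 for all 16808 genes, and over the 8 siRNA arrays alone 1.46 against 1.11. AGO3 had the widest range, 2.96, and XPO5 the narrowest of the 9, 0.90, which is below the median of all genes. The lowest levels of AGO3, DICER1 and DGCR8 were on the siHOXA11 array at 48 h, which stood apart, and those of AGO1 on the sh arrays. These ranges are descriptions without a test, and values near the level of the 23 background probe sets (medians of 3.26 to 3.32 per array) are measured poorly. The 90th percentile of those probe sets was 6.49 to 7.43 per array, above the mean levels of TARBP2, AGO4 (5.13), DGCR8 (5.85) and DICER1 (6.41), so differences of these 4 genes are within the reach of background signal.

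**Figure D1:**
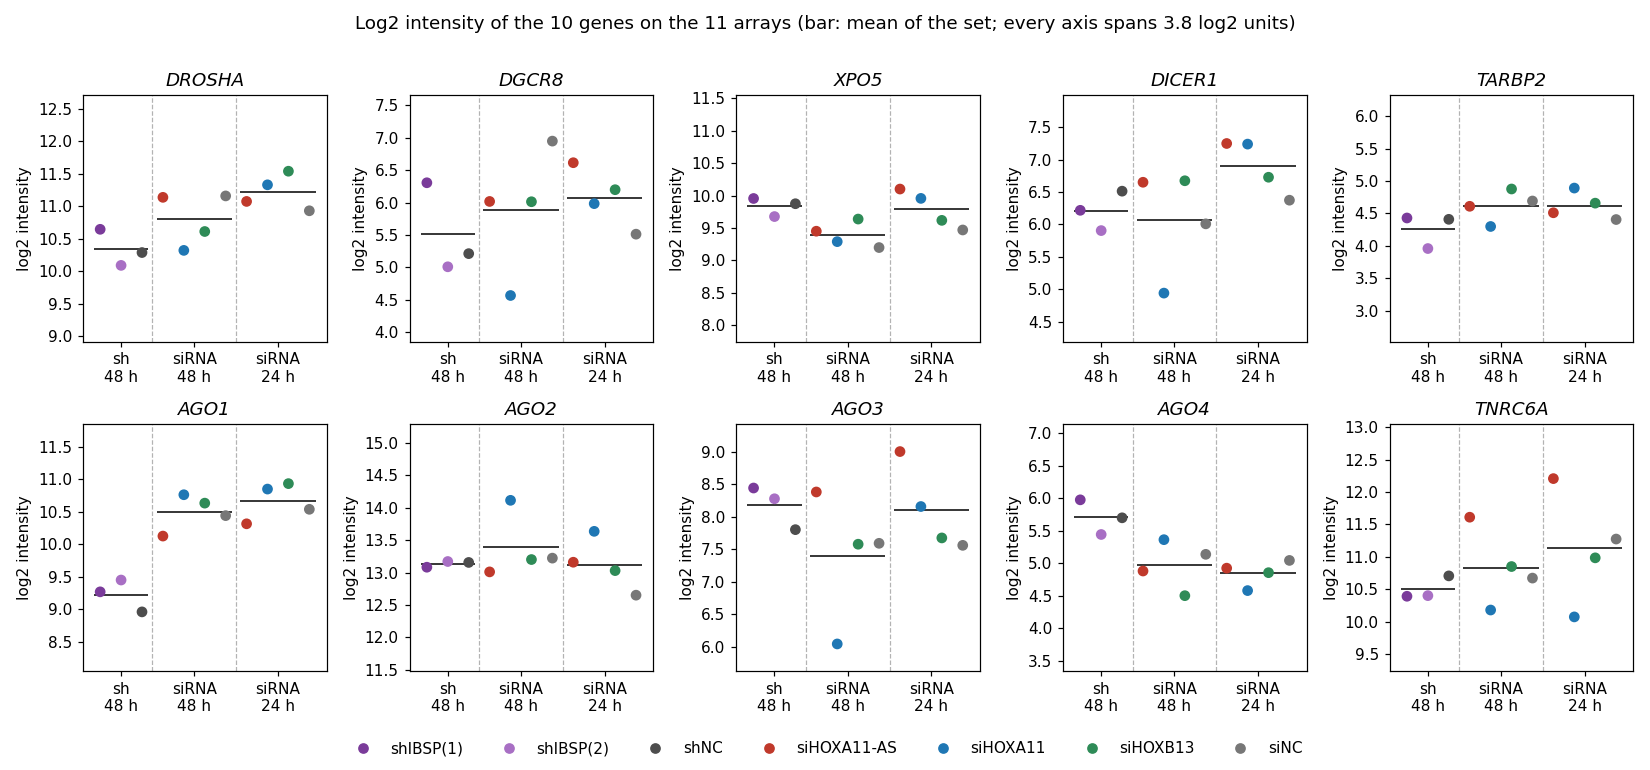
Log2 intensity (vertical axes, each spanning the same number of log2 units) of the 10 genes on the sh arrays at 48 h, the siRNA arrays at 48 h and the siRNA arrays at 24 h; each point is 1 array and each bar the mean of its set. AGO1 lies between 8.96 and 9.45 on the sh arrays and between 10.13 and 10.93 on the siRNA arrays, while AGO3, DICER1 and DGCR8 each have their lowest point on the siHOXA11 array at 48 h.

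The first set of comparisons asked how siRNAs against HOXA11-AS, HOXA11 or HOXB13 left the machinery. Fitted over both times, siHOXA11-AS arrays had more TNRC6A and AGO3, and siHOXA11 arrays had more AGO2 and less TNRC6A, than siNC arrays, by about 2-fold, but no member passed the adjusted threshold in any of the 3 comparisons with siNC. In each of them limma called 0 of 9 members at an adjusted p under 0.05, with a background of 0.0% of 16808 genes, and the methods' t-test also called 0. At an unadjusted p under 0.05 it was 1 of 9 for siHOXA11-AS (4.0% of all genes), 2 of 9 for siHOXA11 (3.68%) and 0 of 9 for siHOXB13 (1.01%). Both arrays lay on 1 side of both siNC arrays for 5 of 9 members with siHOXA11-AS (36.9% of all genes), 3 of 9 with siHOXA11 (29.3%) and 4 of 9 with siHOXB13 (22.6%). Without the 2 arrays in doubt at 48 h, the differences from siNC were 0.76 for TNRC6A and 1.82 for AGO3 with siHOXA11-AS, and 1.14 for AGO2 and −1.02 for TNRC6A with siHOXA11. That fit has 1 siNC array, that of 24 h, as its only control, and 1 residual degree of freedom, so these values are given as sizes only.

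TNRC6A, the scaffold that joins Argonaute to the decay enzymes, had the clearest siRNA pattern. With siHOXA11-AS its log2 intensity was 11.61 at 48 h and 12.21 at 24 h, against 10.67 at 48 h and 11.28 at 24 h with siNC. With siHOXA11 it was 10.18 at 48 h and 10.08 at 24 h, and with siHOXB13 10.85 and 10.99. Both siHOXA11-AS arrays were thus above, and both siHOXA11 arrays below, every siHOXB13 and siNC array. The share of all genes with such an order was not counted. Against siNC the difference was 0.93 (SE 0.32, adjusted p = 1.0) for siHOXA11-AS and −0.85 (SE 0.32, adjusted p = 0.980) for siHOXA11. The difference at 48 h and 24 h was 0.94 and 0.93 for siHOXA11-AS, and −0.49 and −1.20 for siHOXA11.

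Set directly against each other, in a comparison added after the data were seen that uses no control array, siHOXA11-AS arrays exceeded siHOXA11 arrays in TNRC6A by 1.78 (SE 0.32), a 3.43-fold difference. The adjusted p from limma was 0.450, with 0.0% of genes and 0 of 9 members called. At an unadjusted p under 0.05 it was 3 of 9 members (TNRC6A and AGO3 higher, AGO2 lower) and 8.26% of all genes, and 5 of 9 members did not overlap, where 37.8% of all genes did not. At 48 h the difference was 1.43 and at 24 h 2.13. Without any 1 of the 8 arrays it stayed between 1.51 and 2.06, and the adjusted p between 0.110 and 1.00. AGO3 gave 1.59 (SE 0.50), DGCR8 1.04 (SE 0.58), AGO2 −0.79 (SE 0.32) and AGO1 −0.59 (SE 0.29) without overlap. DICER1, DROSHA, XPO5 and AGO4 overlapped, with 0.86, 0.28, 0.15 and −0.069, and TARBP2, not tested, had 4.61 and 4.51 with siHOXA11-AS, against 4.30 and 4.89 with siHOXA11. The 3 comparisons share arrays, so these values are not independent of each other.

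TNRC6B and TNRC6C code for the other two human GW182 proteins. TNRC6B was at a log2 intensity of 9.37 and 9.23 on the siHOXA11-AS arrays of 48 h and 24 h, at 8.38 and 8.35 on the siHOXA11 arrays, and at 9.61 and 9.01 on the siNC arrays. It was therefore low on both siHOXA11 arrays, by −0.94 against siNC (SE 0.33, adjusted p = 0.980), and its siHOXA11-AS and siNC values overlapped. TNRC6C ranged from 6.09 to 6.96 over the 8 siRNA arrays, and its siHOXA11 values of 6.49 at 48 h and 6.96 at 24 h bracketed those of siHOXA11-AS and lay above those of siNC, 6.09 and 6.37.

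AGO2, the Argonaute that cleaves its target, was highest on the siHOXA11 arrays. With siHOXA11 its log2 intensity was 14.11 at 48 h and 13.63 at 24 h, against 13.22 and 12.65 with siNC. Both siHOXA11 values lay above those of all 9 other arrays, which ran to 13.22. The share of all genes for which this held was not counted, and with siHOXA11 29.3% of all genes did not overlap siNC. The difference from siNC was 0.94 (SE 0.32, adjusted p = 0.980), a 1.91-fold excess, with 0.89 at 48 h and 0.98 at 24 h. The siHOXA11-AS arrays had 13.01 at 48 h and 13.16 at 24 h, and siHOXB13 arrays 13.20 and 13.03, both overlapping siNC. AGO2 and TNRC6A were the 2 members with an unadjusted p under 0.05 for siHOXA11.

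AGO3, an Argonaute whose gene lies beside AGO1 on chromosome 1, was also high with siHOXA11-AS, at a log2 intensity of 8.38 at 48 h and 9.004 at 24 h, against 7.59 at 48 h and 7.56 at 24 h with siNC. The groups did not overlap, and the difference of 1.12 (SE 0.50) had an adjusted p of 1.0. With siHOXA11 the 2 times disagreed: AGO3 had 6.04 at 48 h, the lowest of all arrays, and 8.16 at 24 h. With siHOXB13 it was 7.58 and 7.67.

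AGO1 and AGO4 spanned less between siRNAs than AGO3. With siHOXA11-AS, AGO1 was 10.13 at 48 h and 10.32 at 24 h, the lowest of the siRNA arrays at both times, against 10.44 and 10.54 with siNC. It was 10.76 and 10.85 with siHOXA11 and 10.63 and 10.93 with siHOXB13, both above siNC at each time. The fitted difference of siHOXA11-AS from siNC was −0.27 (SE 0.29, adjusted p = 1.0), smaller than its error. AGO4, which has no known slicing activity in human cells, was 4.50 at 48 h and 4.86 at 24 h with siHOXB13, against 5.14 and 5.04 with siNC, a difference of −0.41 (SE 0.35, adjusted p = 1.0). It was 4.88 and 4.93 with siHOXA11-AS, also below siNC, and 5.36 and 4.58 with siHOXA11, which overlapped siNC.

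DICER1 makes the short duplex. With siHOXA11-AS it had 6.65 at 48 h and 7.25 at 24 h, and with siHOXB13 6.67 and 6.73, against 6.01 and 6.37 with siNC. Neither pair overlapped siNC, with differences of 0.76 (SE 0.51, adjusted p = 1.0) and 0.51 (SE 0.51, adjusted p = 1.0). With siHOXA11 it was 4.94 at 48 h, the lowest of all arrays, and 7.24 at 24 h. Its partner TARBP2 stayed between 4.30 and 4.89 on the 8 siRNA arrays, not far above the background probe sets, and was not tested.

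The nuclear genes gave no difference from siNC with an unadjusted p under 0.05. With siHOXA11-AS, DROSHA was 11.14 at 48 h and 11.08 at 24 h, against 10.32 and 11.33 with siHOXA11, 10.61 and 11.54 with siHOXB13, and 11.16 and 10.93 with siNC. XPO5 was 9.45 and 10.10 with siHOXA11-AS, 9.29 and 9.96 with siHOXA11, 9.64 and 9.62 with siHOXB13, and 9.20 and 9.47 with siNC. XPO5 was thus above siNC of the same time with each of the 3 siRNAs at both times, by between 0.09 and 0.63, none of it past the spread in the fit (adjusted p of 0.980 to 1.0).

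DGCR8 was read from the brighter of 2 probe sets that carry its symbol alone. With siHOXA11-AS it had 6.02 at 48 h and 6.61 at 24 h, then 4.57 and 5.98 with siHOXA11, 6.01 and 6.20 with siHOXB13, and 6.95 and 5.51 with siNC. Among the 8 siRNA arrays, the 2 siNC arrays were its highest and its lowest apart from the siHOXA11 array at 48 h, so no siRNA could be separated from siNC. The other DGCR8 probe set lay between 4.65 and 5.72 on all 11 arrays, and for siHOXA11 against siNC it gave 0.08 where the first gave −0.95.

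Another probe set carries DGCR8 together with the microRNA genes MIR3618 and MIR1306, and the signals of the 3 cannot be told apart on it. Both microRNAs lie close behind the start of DGCR8 on the same strand of chromosome 22 (GRCh38.p14), MIR3618's hairpin at chr22:20085746-20085833, and they are shown with their seeds in capitals because they share this signal.
hsa-miR-3618: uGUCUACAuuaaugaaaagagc
hsa-miR-1306-5p: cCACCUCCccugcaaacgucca
hsa-miR-1306-3p: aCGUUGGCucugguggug
This probe set was less variable than the one read for DGCR8, between 6.68 and 7.85 on the 11 arrays, and lower on the 48 h than on the 24 h siRNA arrays with no overlap (6.68 to 7.39 against 7.60 to 7.85). The mean difference was −0.66, where the probe set read for DGCR8 gave −0.19; the probe set with 3 symbols was not in the fit.

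**Figure D2:**
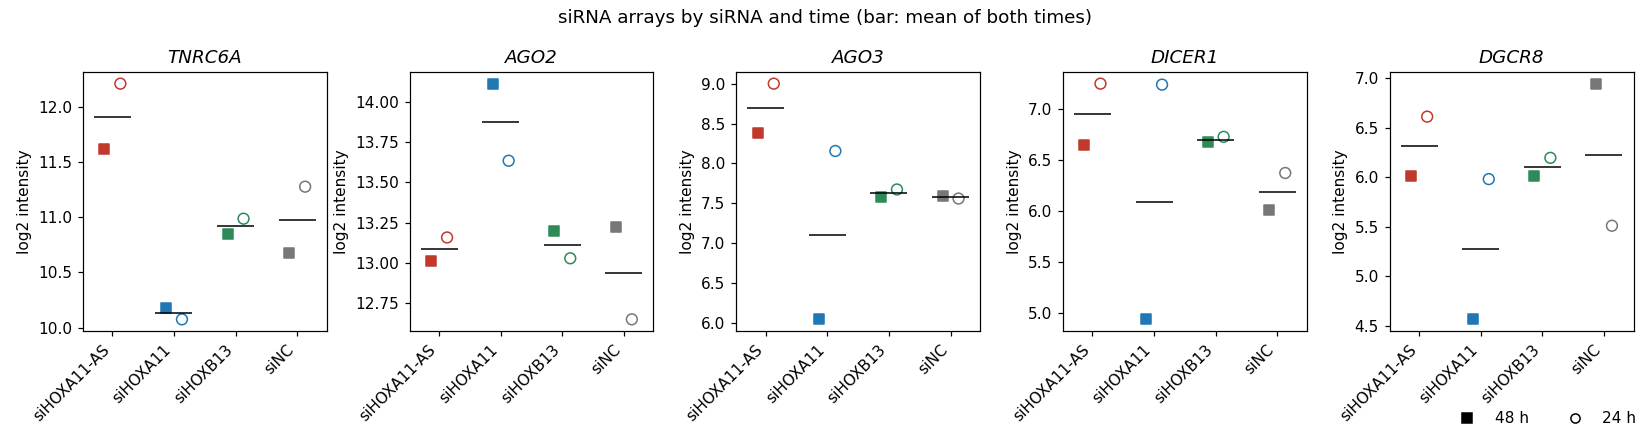
Log2 intensity (vertical axes) of TNRC6A, AGO2, AGO3, DICER1 and DGCR8 with each siRNA (horizontal axes), as 1 filled square for the 48 h array and 1 open circle for the 24 h array, with a bar at their mean. TNRC6A is highest with siHOXA11-AS and lowest with siHOXA11 at both times, and AGO2 is highest with siHOXA11 at both times, whereas AGO3, DICER1 and DGCR8 fall far apart between the siHOXA11 arrays.

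Of the nuclear cofactors of DROSHA and XPO5, 11 were tested and 0 passed the adjusted threshold in any siRNA comparison. Their median difference from siNC was 0.03 for siHOXA11-AS, −0.32 for siHOXA11 and 0.22 for siHOXB13, against 0.09, −0.0016 and 0.08 over all genes. The loading partners of Argonaute, among them the chaperones of the HSP90 system, gave 0.15, 0.015 and 0.010 over 11 genes. The silencing effectors and decay enzymes downstream of TNRC6A gave 0.22, −0.14 and 0.14 over 28 genes, 0 of them called.

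Among these effectors, DDX6, a helicase of the decay machinery, was at 13.96 and 13.87 on the siHOXA11-AS arrays of 48 h and 24 h, at 11.29 and 13.11 on the siHOXA11 arrays, and at 13.17 and 12.59 on the siNC arrays. PATL1, which links decapping to decay, had 9.97 and 9.98 with siHOXA11-AS, and 8.91 and 8.76 with siNC, a difference of 1.14 (SE 0.32, adjusted p = 1.0). The largest difference of these effectors with siHOXA11-AS went the other way, −1.33 (SE 1.01) for the deadenylase subunit CNOT6, whose siNC arrays lay far apart (8.39 to 10.80). In the direct comparison of siHOXA11-AS with siHOXA11, 23 of the 28 effectors were higher and 5 lower, 6 had p under 0.05 and all 6 were higher; over all genes 5.75% were higher at that p. The median was 0.40, against 0.08 over all genes, and the low level of many genes on the siHOXA11 array at 48 h enters this value.

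In the second comparison, 48 h against 24 h with the same siRNAs, the machinery was lower at 48 h in 7 of 9 members. The median was −0.31 against 0.01 over all genes, and 0 of 9 passed the adjusted threshold (background 0.0%). The siRNAs differed in this. Over the 10 members the median pair difference was −0.39 with siHOXA11-AS, −0.63 with siHOXA11, −0.12 with siHOXB13 and 0.06 with siNC. Over all genes these medians were 0.10, −0.16, −0.06 and 0.14. In none of the 9 did the 4 arrays at 48 h and the 4 at 24 h separate without overlap, as 4.69% of all genes did. DICER1 had a log2 intensity of 6.65, 4.94, 6.67 and 6.01 at 48 h with siHOXA11-AS, siHOXA11, siHOXB13 and siNC, against 7.25, 7.24, 6.73 and 6.37 at 24 h. It was lower at 48 h in 4 of 4 pairs, where 6.73% of all genes were, and the fitted difference was −0.83 (SE 0.36, adjusted p = 0.709). Its size rested on 1 siRNA: the pair differences were −0.60, −2.30, −0.054 and −0.36, and without either siHOXA11 array the value was −0.34.

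AGO1 was also lower at 48 h in 4 of 4 pairs, with pair differences between −0.30 and −0.087 and a fitted −0.17 (SE 0.20, adjusted p = 0.885). AGO3 gave −0.70 (SE 0.36, adjusted p = 0.736), and −0.23 without either siHOXA11 array, whose pair difference was −2.12. XPO5 gave −0.39 (SE 0.22, adjusted p = 0.764), DROSHA −0.41 (SE 0.28, adjusted p = 0.788) and TNRC6A −0.31 (SE 0.23, adjusted p = 0.806), and AGO2 was higher at 48 h by 0.27 (SE 0.22, adjusted p = 0.833). AGO4 gave 0.12 (SE 0.25) and DGCR8 −0.19 (SE 0.41), and TARBP2, not tested, averaged 4.62 at both times. An unadjusted p under 0.05 was reached by 1 of 9 members, DICER1, and by 7.02% of all genes. On the siHOXA11 arrays 4 of the 10 members (AGO3, DICER1, DGCR8 and DROSHA) were at least 2-fold lower at 48 h than at 24 h, where 13.4% of all genes were.

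The third comparison set the 3 sh arrays against the 4 siRNA arrays at 48 h, where the class given in the title and anything else the 3 sh arrays share cannot be told apart. Arrays within a class carry different reagent names and were taken as replicates of that class. The SD, SE and p-values here thus measure spread between reagents, and 2 of the siRNA labels are in doubt. AGO1 fell to 8.96 to 9.45 on the sh arrays, against 10.13 to 10.76 on the siRNA arrays, and it was the only member of 9 to pass the adjusted threshold. Of all 16808 genes 1.01% passed, and 0.137% as lower. At an unadjusted p under 0.05 it was 2 of 9 members, AGO1 and AGO4, and 9.98% of all genes. AGO4 and XPO5 were higher on the sh arrays with no overlap, but did not pass.

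AGO1 had log2 intensities of 9.27, 9.45 and 8.96 on the shIBSP(1), shIBSP(2) and shNC arrays, against 10.13, 10.76, 10.63 and 10.44 on the siHOXA11-AS, siHOXA11, siHOXB13 and siNC arrays at 48 h. The sh arrays averaged 9.22 ± 0.25 (SD, n = 3) and the siRNA arrays 10.49 ± 0.28 (SD, n = 4), a difference of −1.27 (SE 0.24), or 2.41-fold. The adjusted p from limma was 0.0388. An exact two-sided permutation test of the 3 against the 4 arrays gave p = 0.0571, the smallest that this design allows. The 3 sh arrays also lay below all 4 siRNA arrays at 24 h, so below 8 of 8 siRNA arrays, as 1.71% of all genes did.

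The call of AGO1 was near its threshold. It was lost after quantile normalization (−1.41, adjusted p = 0.0735), without the arrays labelled siHOXB13 and siNC at 48 h (−1.22, adjusted p = 0.250), and without any 1 of the siHOXB13 or siNC array at 48 h or of the 3 sh arrays, while the difference stayed between −1.39 and −1.13 whichever array was left out. The highest adjusted p among these, 0.279, came without shNC.

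The neighbouring Argonaute genes were not lower on the sh arrays. AGO4 had 5.98, 5.44 and 5.70 on the shIBSP(1), shIBSP(2) and shNC arrays, against 4.88, 5.36, 4.50 and 5.14 on the siHOXA11-AS, siHOXA11, siHOXB13 and siNC arrays at 48 h. The difference was 0.74 (SE 0.26, adjusted p = 0.349), with no overlap. AGO3 had 8.44, 8.28 and 7.80 on the sh arrays and 8.38, 6.04, 7.58 and 7.59 on the siRNA arrays, which overlap. AGO2, on another chromosome, was 13.08 to 13.17 on the sh arrays and 13.01 to 14.11 on the siRNA arrays, a difference of −0.25 (SE 0.28, adjusted p = 0.863).

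AGO4, AGO1 and AGO3 lie next to each other on chromosome 1, in that order and on 1 strand. The promoters of AGO1 and AGO4, from 250 bases before to 50 bases after the annotated start, are printed because these neighbours differed in opposite directions on the sh arrays, AGO4 without passing the threshold. They are the plus strand of chr1:35882959-35883258 for AGO1 and of chr1:35807766-35808065 for AGO4 in RefSeq's GRCh38.p14.
AGO1: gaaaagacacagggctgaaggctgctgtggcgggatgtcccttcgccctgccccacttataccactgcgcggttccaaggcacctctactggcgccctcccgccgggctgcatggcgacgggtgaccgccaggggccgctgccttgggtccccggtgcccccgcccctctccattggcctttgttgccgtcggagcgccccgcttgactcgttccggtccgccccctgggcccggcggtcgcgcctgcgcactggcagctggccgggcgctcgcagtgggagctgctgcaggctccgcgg
AGO4: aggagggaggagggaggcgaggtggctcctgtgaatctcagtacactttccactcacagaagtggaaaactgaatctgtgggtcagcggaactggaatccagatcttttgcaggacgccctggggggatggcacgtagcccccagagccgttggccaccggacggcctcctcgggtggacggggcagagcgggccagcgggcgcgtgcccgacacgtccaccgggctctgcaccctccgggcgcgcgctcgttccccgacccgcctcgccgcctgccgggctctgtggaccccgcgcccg

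Both promoters are rich in G and C, 72.3% for AGO1 and 69.0% for AGO4, against a median of 58.3% over 27305 promoters of this length. AGO3's is at 80.0%, above 97.4% of all promoters. Promoters of 9 members were in the table. None of the 9 held 2 copies of GAAA with 2 bases between them on either strand, where 3.65% of all promoters did. With so small a share, 0 of 9 cannot be told from it, so the count says nothing about these members. This motif is the core of the interferon-stimulated response element. It was found in 6 of the 7 promoters given for the interferon-stimulated genes described next. Interferon control of the members was not tested.

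Interferon-stimulated genes were far higher on the same 3 arrays. All 9 that were tested were higher on the sh arrays than on the 4 siRNA arrays at 48 h with no overlap, 8 of the 9 passed the adjusted threshold, and their median difference was 5.85. IFIT3, an antiviral gene of this set, averaged 14.82 on the sh arrays and 8.47 on the siRNA arrays (adjusted p = 0.00218). By array, the median of the 9 genes was 14.58, 14.01 and 15.72 on the shIBSP(1), shIBSP(2) and shNC arrays, against 11.13, 7.12, 9.06 and 8.02 on the siHOXA11-AS, siHOXA11, siHOXB13 and siNC arrays at 48 h.

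The array with the lowest AGO1, shNC, had the highest median of interferon-stimulated genes, and among the siRNA arrays at 48 h the one with the lowest AGO1, siHOXA11-AS, had the highest median. At 24 h siHOXA11-AS likewise had the lowest AGO1 and the highest median of the 4, 8.86 against 8.57 with siNC. However, MX1, OAS1, OAS2, IFI44L and ISG15 were higher with siNC at 24 h, and IFIT1, IFIT2, IFIT3 and IFI44 were higher with siHOXA11-AS. The other arrays did not all keep this order. At 48 h siHOXB13 had more AGO1 than siNC (10.63 against 10.44) and also a higher median (9.06 against 8.02). These orders are descriptions over arrays that share a sh or siRNA class, and the part of the interferon-stimulated genes in the AGO1 difference was not tested. ADAR, an RNA-editing enzyme of microRNA precursors that is itself induced by interferon, had 11.73, 11.23 and 12.53 on the shIBSP(1), shIBSP(2) and shNC arrays, against 8.96 to 10.67 on the siRNA arrays at 48 h, a difference of 2.13 (SE 0.42, adjusted p = 0.0522).

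**Figure D3:**
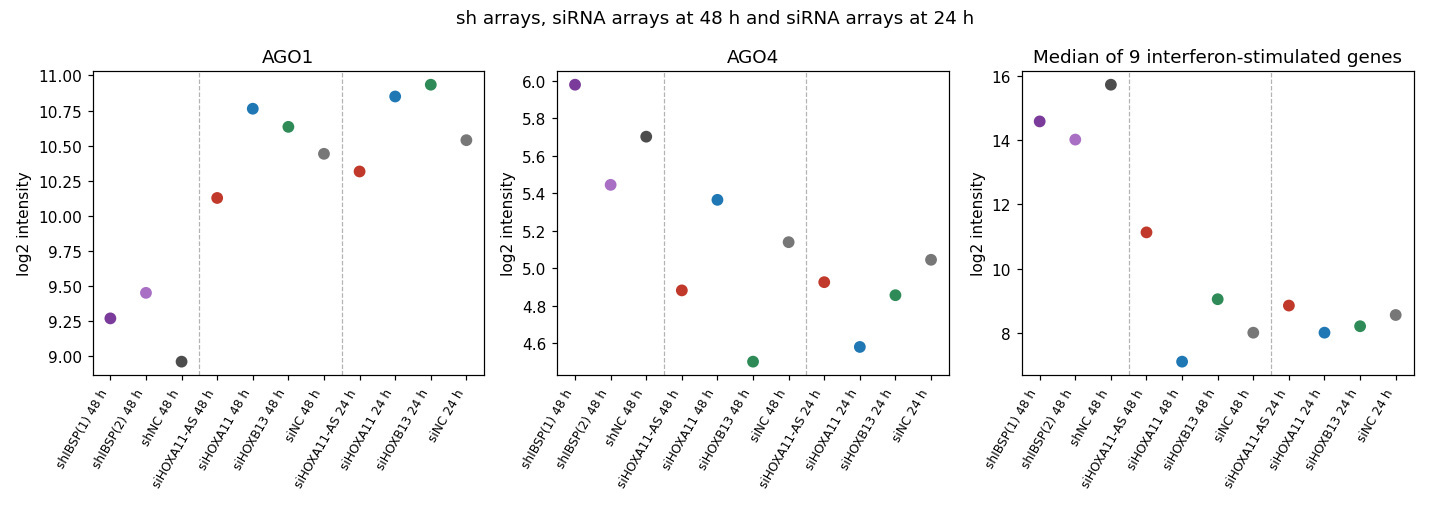
Log2 intensity (vertical axes) of AGO1, of AGO4 and of the median of 9 interferon-stimulated genes on each of the 11 arrays (horizontal axes), with dashed lines between sh arrays, siRNA arrays at 48 h and siRNA arrays at 24 h. AGO1 is lowest on the 3 sh arrays (8.96 to 9.45), where the median of the interferon-stimulated genes is highest (14.01 to 15.72).

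The other members were less separated. XPO5 had 9.95, 9.68 and 9.87 on the shIBSP(1), shIBSP(2) and shNC arrays, against 9.45, 9.29, 9.64 and 9.20 on the siHOXA11-AS, siHOXA11, siHOXB13 and siNC arrays at 48 h, a difference of 0.44 (SE 0.21, adjusted p = 0.534). It did not overlap at 48 h, but siHOXA11-AS and siHOXA11 arrays at 24 h reached 10.10 and 9.96. Of the 9 members 3 did not overlap between the classes, where 11.1% of all genes did not. DROSHA averaged 10.34 ± 0.28 (SD, n = 3) on the sh arrays and 10.81 ± 0.41 (SD, n = 4) on the siRNA arrays (difference −0.47, SE 0.27, adjusted p = 0.651).

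DICER1 (0.14, SE 0.40, adjusted p = 0.953), DGCR8 (−0.38, SE 0.52, adjusted p = 0.901) and TNRC6A (−0.33, SE 0.32, adjusted p = 0.841) overlapped between the classes. The DICER1 and DGCR8 differences were smaller than their SE. TARBP2, not tested, was 4.43, 3.96 and 4.41 on the shIBSP(1), shIBSP(2) and shNC arrays, against 4.30 to 4.88 on the siRNA arrays at 48 h.

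Downstream of TNRC6A, 23 of 28 silencing effectors were higher on the sh arrays and 5 lower, and 0 of 28 passed the adjusted threshold. Their median was 0.25 against 0.05 over all genes. The siHOXA11 array at 48 h, on which many genes were low, is 1 of the 4 siRNA arrays here. FMR1 (8.59), HELZ (7.89), DDX6 (11.29) and XRN1 (7.12) had their lowest values of all 11 arrays on it. Its part in the count and the median was not tested. PATL1 averaged 10.59 on the sh arrays and 9.22 on the siRNA arrays (1.38, SE 0.31, adjusted p = 0.0891). TNRC6B averaged 8.26 on the sh arrays and 9.07 on the siRNA arrays (−0.81, SE 0.31, adjusted p = 0.383). Of the loading partners, 6 of 11 were higher and 5 lower, with a median of 0.03.

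The last comparison, of the 2 shIBSP arrays with the shNC array in a fit of all 11 arrays, gave 0 of 9 members past the threshold (background 0.0%). With p under 0.05 it was 0 of 9 (background 2.54%). The arrays titled shIBSP(1) and shIBSP(2) were taken as replicates of 1 reagent. The SE here thus holds the spread between these 2 and, for the rest, the disagreement between 48 h and 24 h on the siRNA arrays. AGO3 was at 8.44 and 8.28 on the shIBSP arrays and 7.80 on the shNC array, a difference of 0.56 (SE 0.57). AGO1 had 9.27 and 9.45 on the shIBSP arrays and 8.96 on the shNC array, a difference of 0.40 (SE 0.32). DICER1 had 6.22 and 5.91, against 6.51 with shNC, a difference of −0.45 (SE 0.58). TNRC6A gave −0.31 (SE 0.36) and DGCR8 0.44 (SE 0.74), while AGO2, AGO4, DROSHA and XPO5 gave differences between −0.058 and 0.080. TARBP2, not tested, had 4.43 and 3.96, against 4.41 with shNC. None of the 9 passed the threshold, and the shNC arm rests on 1 array.

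**Figure D4:**
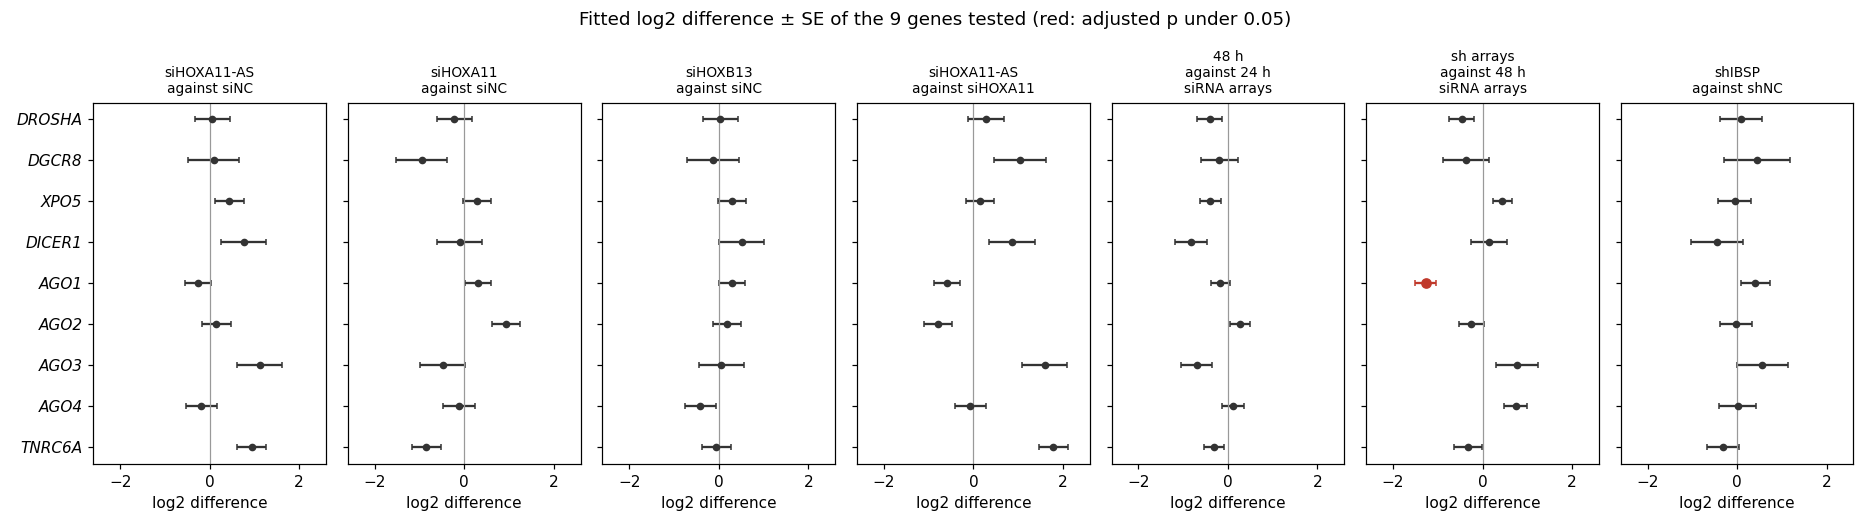
Fitted log2 difference (horizontal axes, point) with its SE (bar) of the 9 genes tested, in 7 comparisons named above the panels, the first group minus the second. AGO1 on the sh arrays (−1.27) is the only point with an adjusted p under 0.05, and TNRC6A between siHOXA11-AS and siHOXA11 is the largest difference, 1.78.

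For 4 members, the genes with the most alike pattern were sought as those with the smallest root mean square difference of mean-centred log2 values over the 11 arrays. For AGO1 these were CERK (0.26), UCP2, CPT1A, SYT16 and DDX3X (0.30). For TNRC6A they were PTAR1 (0.30), MBD4, TAF7, PTS and SLC4A7 (0.33). For DICER1 they were TNPO3 (0.22), MANEAL, WDR55, TRAK2 and ATP8B1 (0.27), and for AGO2 HHEX (0.15), MIR3976HG, HES3, TMOD1 and MAGI3 (0.16). The members' own root mean square deviations from their means were 0.65 for AGO1, 0.61 for TNRC6A, 0.62 for DICER1 and 0.36 for AGO2. With 16808 genes to choose from, such likeness is a description of these arrays.

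Of the PIWI proteins, the germline relatives of Argonaute, all 4 genes were named but none was bright enough to be tested. PIWIL1 lay between 3.83 and 4.84, and PIWIL2, PIWIL3 and PIWIL4 between 2.78 and 4.16, near the background probe sets. Of 16 microRNA host transcripts listed, 6 were named and 3 tested. MIR222HG was 7.77 to 8.14 on the sh arrays and 7.23 to 7.89 on the siRNA arrays at 48 h, and none of the 3 passed the threshold in any comparison.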

How the data were processed

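RNA of transfected PC3 cells had been hybridized to Clariom D arrays after labelling with the WT PLUS kit. The authors deposited 1 linear intensity per probe set and array, made with Affymetrix Expression Console. Not given in the sources used here are its version, the summary method and the normalization, and the labels and the methods state different siRNA concentrations. The design assumed log2 values, so log2 was taken from the deposited intensities here, with no further normalization. Groups follow the labels. Of 138745 probe sets, 36176 carried 1 gene symbol, and the 1119 with more than 1 gave no gene its level. The brightest probe set stood for a gene, and the 16808 named genes with the higher mean levels, of 33616, were tested. Limma 3.58.1 in R 4.3.3 (lmFit, eBayes) was fitted with siRNA and time on the 8 siRNA arrays (3 residual degrees of freedom), with class on the 7 arrays at 48 h (5), and with reagent and time on all 11 arrays for shIBSP (4); p-values were adjusted by Benjamini-Hochberg over all genes tested, at 0.05. The number of arrays limits the precision. The fit was tested on simulated data. Sequences came from the study's siRNA list and from RefSeq (GRCh38.p14); 1 listed siRNA sequence is not reported here. Alternatives were no filter on dim genes, median centring, quantile normalization, averaging the probe sets of a gene, a variance trend with intensity, 1 fit of all 11 arrays, no siRNA term, the methods' t-test, other control arrays, and leaving out the 2 arrays in doubt or each array. The text names all 10 members in every comparison, and of each further list up to 4 genes with the largest differences; TNRC6C, the genes most like AGO1 and the single arrays named for TNRC6B and DDX6 beyond that were chosen after their values were seen. Members and lists were chosen with earlier results of these data known. HOXA11 is on no probe set with 1 symbol and is not analysed here.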

Additional observations from a re-analysis of the deposited data

Results flagged for a closer look

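For 5 pairs of a member and a siRNA, the difference from siNC was at least 0.5 on the log2 scale at both times and had opposite signs at 48 h and 24 h. Each rests on 1 array against 1 at each time, and the difference between the times was not tested. With siHOXA11, AGO3 differed from siNC by −1.55 at 48 h and 0.60 at 24 h, and DICER1 by −1.07 at 48 h and 0.86 at 24 h. For DGCR8 and siHOXA11-AS the values were −0.93 at 48 h and 1.10 at 24 h. With siHOXB13, DGCR8 differed by −0.93 at 48 h and 0.69 at 24 h, and DROSHA by −0.55 at 48 h and 0.61 at 24 h. HOXB13 itself changed sign between the times in the siHOXB13 comparison, and 13.2% of all genes were at least 2-fold lower on the siHOXA11 array at 48 h than on the siNC array of that time; the part of either in these values was not tested.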

How the results depend on the processing

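No pairing by replicate was possible because the labels give the groups no shared replicate numbers. The siRNA term of the fit does pair the 48 h with the 24 h array of each siRNA. For 48 h against 24 h, 0 of 9 members were called without this term, as with it. Over 504 combinations of a member, a comparison and a setting other than leaving out 1 array, 477 kept direction and side of the threshold, 6 lost the call and 21 changed sign, all 21 of uncalled differences. The 1 member called on the sh arrays became 0 after quantile normalization, with the intensity trend, without the 2 arrays in doubt, with the methods' t-test, with shNC alone and with the shIBSP arrays alone. In these 6 settings AGO1 gave −1.41, −1.27, −1.22, −1.27, −1.53 and −1.13, with adjusted p between 0.0646 and 0.536. Leaving out 1 array gave 0 to 1 members called there, and 0 in the other comparisons.

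Signs that changed after quantile normalization and after median centring were AGO3 (−0.063 and −0.066) and DROSHA (−0.055 and −0.085) for siHOXB13, DROSHA (−0.11 and −0.075) for siHOXA11-AS, and AGO2 (0.15 and 0.088) and XPO5 (0.095 and 0.059) for shIBSP. DGCR8 with siHOXA11-AS gave −0.050 after median centring. For siHOXA11-AS against siHOXA11, quantile normalization gave 0.012 for AGO4, −0.012 for DROSHA and −0.12 for XPO5. Without the 2 arrays in doubt, DGCR8 gave 0.69 for siHOXB13 and 0.22 for the sh arrays, and siHOXA11 gave 0.22 for AGO3, 0.44 for DICER1, 0.13 for DROSHA and 0.27 for DGCR8. DICER1 gave −0.0070 with the shIBSP arrays alone against the siRNA arrays. The cause was not tested.

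When 1 array was left out, these uncalled differences changed sign in at least 1 fit, given as their lowest to highest value. For 48 h against 24 h siRNA arrays they were AGO4 (−0.10 to 0.28) and DGCR8 (−0.73 to 0.22). For siHOXB13 against siNC they were AGO2 (−0.024 to 0.38), AGO3 (−0.44 to 0.54), DICER1 (−0.0070 to 1.02), DROSHA (−0.40 to 0.46), DGCR8 (−1.21 to 0.96) and TNRC6A (−0.25 to 0.14). For siHOXA11 against siNC they were AGO3 (−1.42 to 0.47), AGO4 (−0.56 to 0.32), DICER1 (−1.08 to 0.88), DROSHA (−0.65 to 0.21) and DGCR8 (−2.04 to 0.13). For siHOXA11-AS against siNC they were AGO2 (−0.13 to 0.43), DROSHA (−0.37 to 0.49) and DGCR8 (−0.997 to 1.17). For sh arrays against 48 h siRNA arrays they were DICER1 (−0.23 to 0.34). For shIBSP against shNC they were AGO2 (−0.074 to 0.014), AGO4 (−0.26 to 0.28), DROSHA (−0.20 to 0.36), DGCR8 (−0.20 to 1.09) and XPO5 (−0.20 to 0.081). For siHOXA11-AS against siHOXA11 they were AGO4 (−0.51 to 0.37), DICER1 (−0.12 to 1.84), DROSHA (−0.12 to 0.68) and XPO5 (−0.031 to 0.34).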

Other observations

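CNOT6, a deadenylase subunit downstream of TNRC6A that was singled out after its values were seen, lay at either of 2 levels. Its log2 intensity was 10.27 to 10.65 on the 3 sh arrays, and 10.80 on the siNC array at 48 h, 10.87 on the siHOXB13 array at 24 h and 10.72 on the siHOXA11 array at 24 h. It was 8.13 to 8.65 on the other 5 siRNA arrays, with no array between 8.65 and 10.27. As labelled, its differences from siNC have opposite signs at 48 h and 24 h with siHOXB13 and siHOXA11. For siHOXB13 this rests on the 2 labels in doubt at 48 h. With those exchanged, both siHOXB13 arrays would be high, and both siNC and both siHOXA11-AS arrays low. Only siHOXA11 would then have 1 array at each level. Its signs would stay opposite, because its 8.13 at 48 h lies below 8.65 as well as below 10.80. An exchange of the labels was not tested.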
